A study of Arabidopsis thaliana with 18 samples.

Results

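The clade 2 glutamate receptor genes GLR2.1 to GLR2.9 of Arabidopsis thaliana were taken as the 9 rows of the deposited count tables with their gene identifiers, out of 32833 genes in all. The family was taken up because GLR2.3 had been seen to be lower with aluminium in these same libraries, so the aluminium responses of the 9 genes are given as descriptions without a test. Poly(A) RNA of whole seedlings was sequenced in 18 libraries, in 6 groups of 3 with replicates numbered 2, 3 and 4. The groups were wild type, als3-1 and sog1-7, all in ecotype Col-0, each on gel medium of pH 4.2 with no AlCl3 (0 mM) or with 1.5 mM AlCl3, and seedlings were harvested 84 h after sowing in constant light. ALS3 encodes part of a transporter needed for aluminium tolerance, and SOG1 is a NAC transcription factor of the plant DNA damage response. Each mutant was represented by 1 allele, and the number of seedlings pooled in a library is not given in the sources used here. Nothing in the labels says that the replicates were separate cultures, so the tests measure the spread among these libraries alone, and that spread may be technical.

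Plant glutamate receptor-like proteins are homologues of the ionotropic glutamate receptors of animals. They sit in membranes as ligand-gated cation channels that pass calcium and respond to amino acids. Members of clade 3 are known for long-distance wound signals. Many clade 2 genes are known to be expressed in roots, and GLR2.7, GLR2.8 and GLR2.9 are known for calcium entry after immune elicitors.

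The libraries held 25561124 to 44572947 counted reads, and a count of 3 in a library corresponded to 0.0673 to 0.117 CPM (counts scaled to library size, adjusted with TMM factors). Nuclear ribosomal RNA genes took 0.909 to 5.71% of the reads in 15 libraries and 0.0168 to 0.0285% in the other 3, all numbered replicate 2 (als3-1 at 1.5 mM and sog1-7 at both concentrations). For the 9 genes, aluminium responses of als3-1 and sog1-7 and the named genotype differences are given with and without these 3 libraries, and for other genes where a call was lost without them. All 10 root markers and all 8 shoot markers had reads in every library. The summed root markers ranged from 4740 to 7260 CPM in wild type at 0 mM, 4610 to 5560 in wild type at 1.5 mM, 6100 to 8260 and 5570 to 9110 in als3-1, and 6190 to 8480 and 5470 to 7590 in sog1-7. In whole seedlings, fewer cells of a type and less RNA per cell cannot be told apart.

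All 9 genes passed the filter on low counts. They lie in 3 places with adjacent or nearby copies and at 2 single sites (TAIR10). GLR2.3 (AT2G24710, chromosome 2, 10516780 to 10520684) and GLR2.2 (AT2G24720, 10522548 to 10526059) are adjacent on the minus strand. GLR2.9 (AT2G29100, 12501092 to 12504944), GLR2.8 (AT2G29110, 12506795 to 12510624) and GLR2.7 (AT2G29120, 12511246 to 12515947) form a second minus-strand row on chromosome 2. GLR2.6 (AT5G11180, chromosome 5, 3557238 to 3561575) and GLR2.5 (AT5G11210, 3571020 to 3574817) lie on the minus strand with other genes between them. GLR2.1 (AT5G27100, chromosome 5, 9535059 to 9538444, minus strand) and GLR2.4 (AT4G31710, chromosome 4, 15349121 to 15352962, plus strand) stand alone. The coding sequences of GLR2.5 and GLR2.6 were 89.0% identical, those of GLR2.2 and GLR2.3 86.2%, and those of GLR2.8 and GLR2.9 85.6%. Members of different clusters shared 63.8 to 74.0%. Between 0 and 3.78% of the 31-base words of a member's exons occurred elsewhere in the genome, so a small part of the reads of the similar copies could be counted at the wrong gene. The end of GLR2.5 overlaps UAP56b, an RNA helicase gene with 3441 to 7901 reads per library, and since the strand setting of the counting is not given in the sources used here, the GLR2.5 level is uncertain to that extent. The mean level of UAP56b went from 144 to 130 CPM with aluminium in wild type, from 157 to 131 in als3-1 and from 170 to 155 in sog1-7. Its part in the GLR2.5 values was not tested.

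The bases upstream of GLR2.5 and GLR2.6 are shown because these similar copies moved in opposite directions with aluminium, GLR2.5 higher and GLR2.6 lower. Those of GLR2.3 are shown because it had the largest log2 fall among the 9 genes in each genotype. The windows hold the 250 bases before each annotated start (RefSeq TAIR10.1, whose coordinates for all 9 genes equal those in the files). For GLR2.5 (chr5:3574818-3575067, minus strand) and GLR2.6 (chr5:3561576-3561825, minus strand), capitals mark bases that differ between these windows or have no partner in the alignment.
GLR2.5: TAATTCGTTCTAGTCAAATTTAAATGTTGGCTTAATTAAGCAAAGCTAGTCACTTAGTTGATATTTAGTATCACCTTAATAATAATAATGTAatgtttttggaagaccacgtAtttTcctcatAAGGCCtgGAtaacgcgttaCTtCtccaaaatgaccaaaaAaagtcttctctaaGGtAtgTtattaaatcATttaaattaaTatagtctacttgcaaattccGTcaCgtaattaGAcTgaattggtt
GLR2.6: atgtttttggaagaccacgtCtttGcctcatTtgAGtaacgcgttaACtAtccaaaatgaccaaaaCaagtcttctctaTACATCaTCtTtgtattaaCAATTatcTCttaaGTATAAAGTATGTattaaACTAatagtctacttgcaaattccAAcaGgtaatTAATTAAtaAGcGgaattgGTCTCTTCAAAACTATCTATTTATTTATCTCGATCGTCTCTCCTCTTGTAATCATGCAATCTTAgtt
Of the aligned 152 bases 86.2% were identical, with 21 mismatches, and 98 bases of each window had no partner. Many of the unpaired bases stand at the far end of the GLR2.5 window and next to the annotated start of GLR2.6. Each window is placed by its own annotated start, and bases beyond the windows were not compared. A base without a partner here may therefore have one outside the other window. The other 35 pairs of members shared 55.5 to 76.1% over 188 to 229 aligned bases. For GLR2.3 (chr2:10520685-10520934, minus strand), capitals mark the core of the W-box, TTGAC, on either strand.
GLR2.3: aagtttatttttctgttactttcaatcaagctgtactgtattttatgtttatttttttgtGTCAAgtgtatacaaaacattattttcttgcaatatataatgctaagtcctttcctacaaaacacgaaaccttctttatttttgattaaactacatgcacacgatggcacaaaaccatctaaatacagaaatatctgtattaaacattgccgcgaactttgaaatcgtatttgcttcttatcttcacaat
The W-box core, the element bound by WRKY factors, was in 7 of the 9 upstream windows and in 44.9% of 27443 windows of the same length. The SOG1 palindrome, CTT and AAG separated by 7 bases, was in 1 member, GLR2.6, 143 to 131 bases before its start, and in 9.71% of all windows. The phosphate-response element P1BS (GNATATNC) was in 0 of 9 members and 5.46% of windows, and the G-box (CACGTG) in 0 of 9 and 6.49%. Both strands were searched, the motifs share no letters in these members, and a match describes the letters only.

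At 0 mM the members differed widely in level. On the FPKM scale (fragments scaled to gene length and library size, which allows genes of different length to be compared), GLR2.3 (2.69 ± 0.68, SD, n = 3) and GLR2.1 (2.67 ± 0.48) led in wild type. Their ranges overlapped, and both lay above GLR2.7 (1.29 ± 0.30) and GLR2.6 (1.06 ± 0.20), which overlapped each other. GLR2.2 (0.483 ± 0.205) and GLR2.4 (0.310 ± 0.029) overlapped below them, followed by GLR2.5 (0.216 ± 0.017). GLR2.9 (0.0245 ± 0.0228) and GLR2.8 (0.0126 ± 0.0134) were close to the detection floor. GLR2.8 and GLR2.9 had under 10 reads in 12 and 13 of the 18 libraries, and each was at 0 in 1. With aluminium the order in wild type became GLR2.1 (2.21 ± 0.24), GLR2.7 (1.70 ± 0.50), GLR2.5 (0.480 ± 0.129) and GLR2.6 (0.472 ± 0.171), and GLR2.3 (0.0984 ± 0.0801) was second from last.

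**Figure D1:**
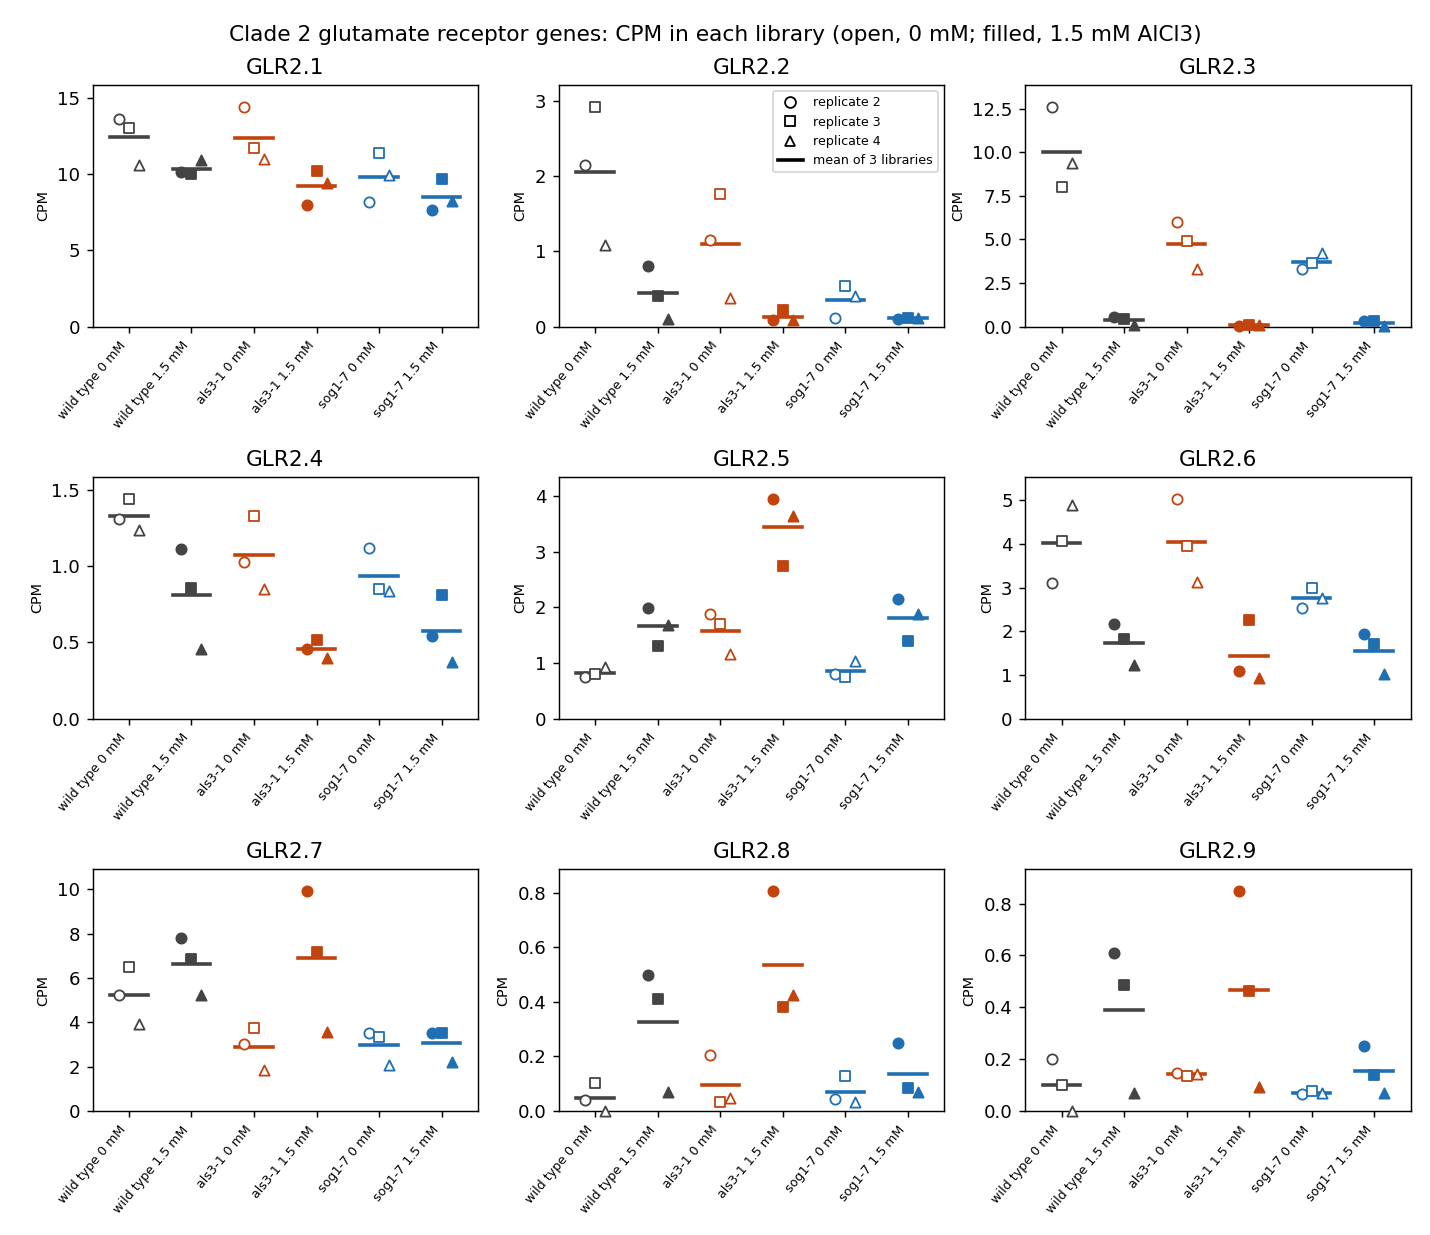
CPM (vertical axes, linear, each from 0) of the 9 genes in the 18 libraries, by group. Points are libraries, open at 0 mM and filled at 1.5 mM, with shapes for replicates and bars for the mean of 3; GLR2.3 lies at 0.0414 to 0.553 CPM in all filled points and at 3.31 to 12.6 CPM in all open ones.

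GLR2.3 was far lower with aluminium in each genotype. In wild type it had 12.6, 8.02 and 9.36 CPM at 0 mM (replicates 2, 3 and 4) and 0.553, 0.449 and 0.0700 at 1.5 mM. In als3-1 the values were 5.97, 4.89 and 3.31 against 0.0414, 0.0815 and 0.0911. In sog1-7 they were 3.32, 3.62 and 4.20 against 0.291, 0.334 and 0.0467. No treated library of any genotype reached an untreated one, and the 3 treated als3-1 libraries held 2, 3 and 3 reads, at or under the floor of 3. The log2 fold changes were -4.76 ± 0.50 (SE) in wild type, -6.04 ± 0.60 in als3-1 and -4.04 ± 0.50 in sog1-7. In als3-1 the 8 treated against 490 untreated reads corresponded to 68.0-fold less (exact 95% interval 34.2 to 158, counting error only). Without the 3 libraries low in ribosomal RNA, the values were -4.76, -5.71 and -4.40. Among 21650 genes tested GLR2.3 ranked 2 from the largest decrease in wild type, 3 in als3-1 and 5 in sog1-7. Since the family was taken up for this fall, the interval and the ranks only describe it. The root markers TIP2;3 and BGLU21 fell in als3-1 with aluminium (log2 fold changes -4.17 ± 0.61 and -1.07 ± 0.20, edgeR adjusted p = 0.000404 and 0.00295), 2 of 10 root markers called there beside 10.8% of all genes. In wild type and sog1-7 edgeR called 0 of 10 (1 of 10 in each at an unadjusted p under 0.05 and by DESeq2), beside 1.88% and 1.19% of genes. Their part in the GLR2.3 result was not tested.

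GLR2.2, the neighbour of GLR2.3, was lower as well. Its CPM in wild type was 2.15, 2.92 and 1.08 at 0 mM and 0.802, 0.411 and 0.105 at 1.5 mM. In als3-1 it was 1.15, 1.76 and 0.378 against 0.0827, 0.217 and 0.0911. In sog1-7 it was 0.108, 0.542 and 0.403 against 0.104, 0.111 and 0.117. The treated and untreated ranges were apart in wild type and als3-1 and overlapped in sog1-7, where GLR2.2 was already low without aluminium. The log2 fold changes were -2.18 ± 0.66, -3.04 ± 0.75 and -1.61 ± 0.80. Without wild type replicate 2 at 1.5 mM the wild type value was -2.99, and without the low-rRNA libraries the values of als3-1 and sog1-7 were -2.76 and -2.02. The sog1-7 value rested on 14 treated and 38 untreated reads, a ratio of 0.334 (exact 95% interval 0.167 to 0.630, counting error only).

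GLR2.5 and GLR2.6, the most similar pair by coding sequence, went opposite ways. GLR2.5 had 0.755, 0.806 and 0.930 CPM in wild type at 0 mM and 1.99, 1.31 and 1.68 at 1.5 mM. Its als3-1 values were 1.88, 1.70 and 1.16 against 3.95, 2.74 and 3.64. Its sog1-7 values were 0.798, 0.749 and 1.04 against 2.16, 1.39 and 1.89. Every treated library of a genotype was above every untreated one, with log2 fold changes of 1.00 ± 0.26, 1.13 ± 0.24 and 1.08 ± 0.25. GLR2.6 had 3.1, 4.06 and 4.90 CPM in wild type at 0 mM and 2.16, 1.83 and 1.22 at 1.5 mM. Its als3-1 values were 5.03, 3.96 and 3.14 against 1.1, 2.25 and 0.941, and its sog1-7 values 2.54, 3.0 and 2.76 against 1.95, 1.70 and 1.03. Every treated library was below every untreated one, with log2 fold changes of -1.21 ± 0.33, -1.50 ± 0.33 and -0.82 ± 0.33. Without the low-rRNA libraries GLR2.5 responded by 1.02 in als3-1 and 0.88 in sog1-7, and GLR2.6 by -1.33 and -1.08. In wild type at 0 mM GLR2.6 had 1.06 ± 0.20 FPKM and GLR2.5 0.216 ± 0.017, whereas at 1.5 mM the values were 0.472 ± 0.171 and 0.480 ± 0.129. In als3-1 at 1.5 mM GLR2.5 (1.04 ± 0.31) was above GLR2.6 (0.454 ± 0.239), and their ranges did not overlap.

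GLR2.7, GLR2.8 and GLR2.9 were higher with aluminium on average, with wide spread. GLR2.7 had 5.25, 6.48 and 3.94 CPM in wild type at 0 mM and 7.80, 6.84 and 5.21 at 1.5 mM. In als3-1 the values were 3.03, 3.73 and 1.84 against 9.91, 7.17 and 3.55. In sog1-7 they were 3.51, 3.33 and 2.08 against 3.53, 3.51 and 2.2. Treated and untreated ranges overlapped in all 3 genotypes, and the log2 fold changes were 0.34 ± 0.35, 1.27 ± 0.35 and 0.04 ± 0.35. GLR2.8 ranged from 0 to 0.101 CPM in wild type at 0 mM and from 0.0700 to 0.498 at 1.5 mM, or 4 reads against 31 in total, a ratio of 7.39 (exact 95% interval 2.61 to 28.8, counting error only). In als3-1 it went from 10 reads to 67, a ratio of 6.04 (3.09 to 13.2), and the ranges were apart. The fitted log2 fold changes of GLR2.8 were 2.76 in wild type and 2.48 in als3-1, and their size depended on single libraries. The wild type value was 3.99 without replicate 3 and 2.14 without replicate 4 of the untreated libraries, and the als3-1 value was 3.61 without untreated replicate 2. GLR2.9 went from 8 reads to 37 in wild type, a ratio of 4.41 (2.02 to 11), and from 15 to 61 in als3-1, a ratio of 3.66 (2.06 to 6.94). These intervals pool the reads of a group and leave out the spread among its libraries. Treated and untreated ranges of GLR2.9 overlapped in all 3 genotypes. In als3-1 it had 0.848, 0.462 and 0.0911 CPM with aluminium against 0.147, 0.133 and 0.142 without. Its fitted wild type value of 2.03 was 2.93 without untreated replicate 2 and 1.4 without untreated replicate 4. In sog1-7 the ratios were 2.04 (0.843 to 5.42) for GLR2.8 and 2.26 (0.955 to 5.94) for GLR2.9. Without the low-rRNA libraries the direction of GLR2.8 in sog1-7 turned, from a log2 fold change of 0.96 to -0.16, while GLR2.9 went from 1.12 to 0.47 and GLR2.7 was 0.06. The GLR2.8 value was 0.13 without treated replicate 2 and 1.73 without untreated replicate 3 of sog1-7.

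In als3-1 at 1.5 mM the 3 libraries had the same order by defence genes as by GLR2.7 and GLR2.9, but not by GLR2.8. For 10 defence genes (PR1, PR2, PR5, PAD4, EDS1, ICS1, PAD3, CYP71A13, FMO1 and FRK1, a list made after these data had been seen), the mean log2 CPM, centred for each gene, was 2.94, 1.68 and -0.54 in replicates 2, 3 and 4 of als3-1 at 1.5 mM. GLR2.7 had 9.91, 7.17 and 3.55 CPM in those libraries, GLR2.9 had 0.848, 0.462 and 0.0911, and GLR2.8 had 0.806, 0.380 and 0.425. Replicate 2 was the highest of the 18 libraries for the defence mean and for all 3 receptors, and it is also low in ribosomal RNA. Without the low-rRNA libraries the als3-1 log2 fold changes were 0.92 for GLR2.7, 2.05 for GLR2.8 and 0.98 for GLR2.9, the last against 1.74 with them. In wild type at 1.5 mM the defence mean was 1.35, 1.86 and 0.75. By each of GLR2.7 (7.80, 6.84 and 5.21 CPM), GLR2.8 and GLR2.9 replicate 2 was highest there, so the order differed. In sog1-7 at 1.5 mM the defence mean was -0.02, -0.43 and -1.02, the same order as by GLR2.7, GLR2.8 and GLR2.9. At 0 mM the order by GLR2.7 was that of the defence mean in als3-1, but not in wild type or sog1-7. The part of the defence genes in the receptor values was not tested.

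**Figure D2:**
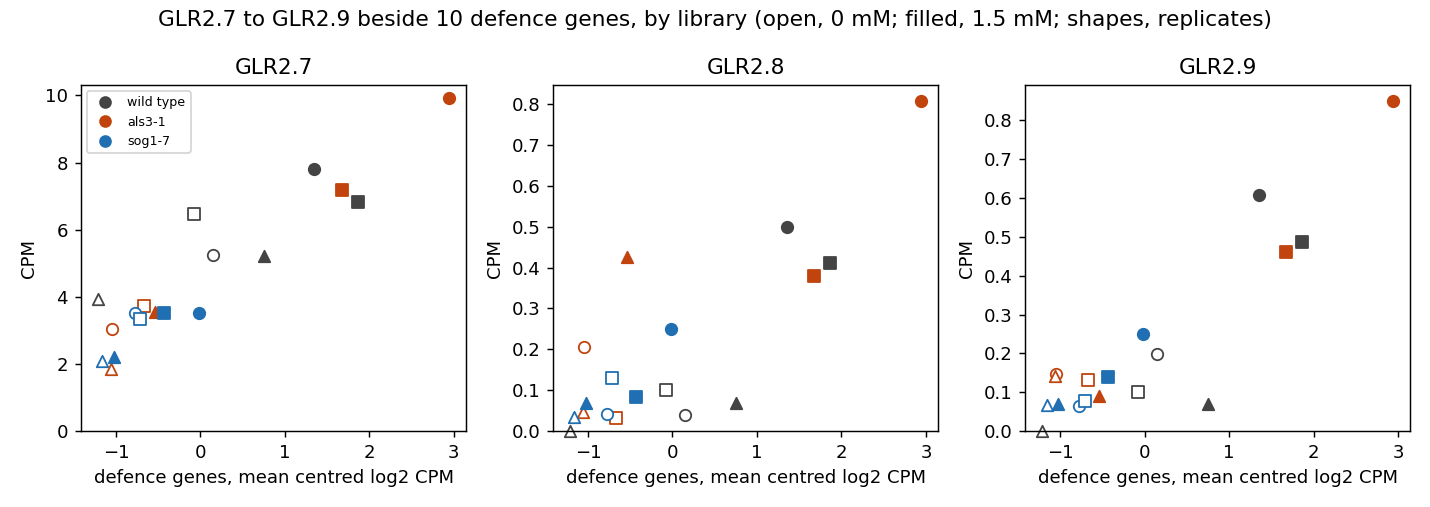
CPM of GLR2.7, GLR2.8 and GLR2.9 (vertical axes, linear from 0) against the mean centred log2 CPM of 10 defence genes (horizontal axes), with each point 1 of 18 libraries. The als3-1 1.5 mM replicate 2 library is at the upper right in each panel, with a defence mean of 2.94, and als3-1 1.5 mM replicate 4 is at -0.54.

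GLR2.1 and GLR2.4, the single-site members, were lower with aluminium on average. GLR2.1 spanned 7.62 to 14.4 CPM over all 18 libraries, and its log2 fold changes were -0.26 ± 0.16, -0.43 ± 0.16 and -0.21 ± 0.16. GLR2.4 went from 1.24 to 1.44 CPM at 0 mM to 0.455 to 1.11 at 1.5 mM in wild type, with log2 fold changes of -0.71 ± 0.33, -1.22 ± 0.34 and -0.72 ± 0.33. Treated GLR2.4 values lay below untreated ones in all 3 genotypes. With the low-rRNA libraries left out, GLR2.1 responded by -0.33 in als3-1 and -0.25 in sog1-7, and GLR2.4 by -1.21 and -0.53.

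Over the 9 genes, treated and untreated libraries did not overlap for 1 higher and 4 lower members in wild type, where 9.15% and 7.81% of the 21650 genes tested did the same. In als3-1 the counts were 2 higher and 5 lower (13.5% and 15.1% of genes), and in sog1-7 1 higher and 3 lower (7.11% and 6.68%). GLR2.3, GLR2.4 and GLR2.6 were lower without overlap in all 3 genotypes, as were 1.76% of genes, and GLR2.5 was higher, as were 1.60%. The median log2 fold change of the 9 members was -0.26, -0.43 and -0.21, beside -0.00, 0.02 and -0.00 over all genes tested. Since the family was chosen for this response, nothing is read from these shares. The 3 Al responses came from separate libraries. Most same-numbered libraries of different genotypes deviated together from their group means, so the 3 responses may not be independent.

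**Figure D3:**
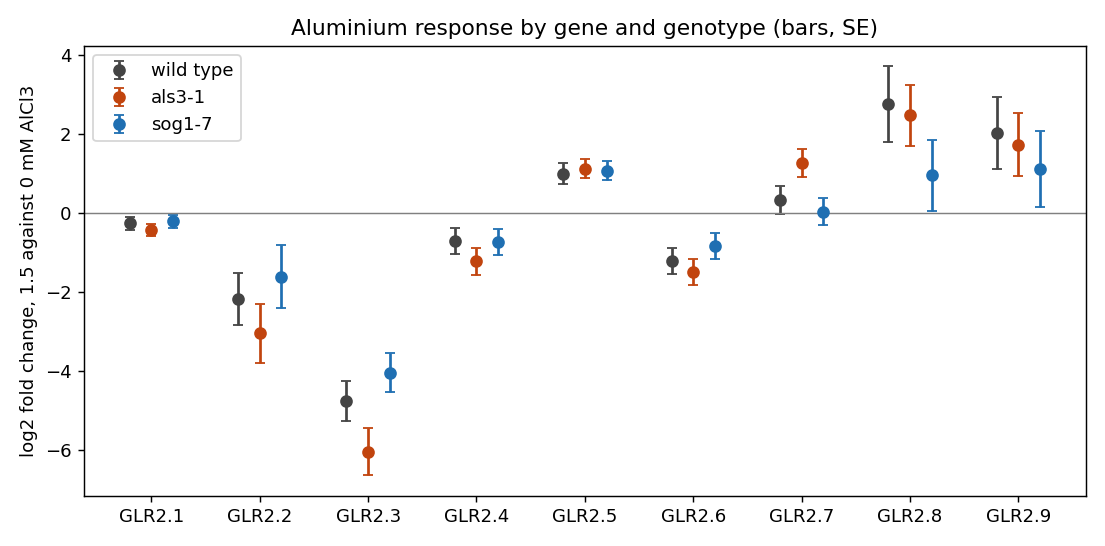
Log2 fold change at 1.5 against 0 mM AlCl3 (vertical axis) for each member (horizontal axis) in wild type, als3-1 and sog1-7, with bars for the SE of the edgeR fit over 18 libraries. GLR2.3 is lowest in all 3 genotypes (-4.76, -6.04 and -4.04), GLR2.5 lies at 1.00 to 1.13, and GLR2.7 ranges from 0.04 in sog1-7 to 1.27 in als3-1.

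The make-up of clade 2 transcripts changed with these levels. Summed over the 9 genes, FPKM was 8.75 ± 1.05 in wild type at 0 mM and 5.47 ± 1.44 at 1.5 mM, 7.45 ± 1.75 and 6.29 ± 2.08 in als3-1, and 6.0 ± 0.78 and 4.43 ± 0.97 in sog1-7. GLR2.3 took 30.6% ± 5.8 of that sum in wild type, 18.7% ± 1.8 in als3-1 and 19.0% ± 2.4 in sog1-7 at 0 mM. At 1.5 mM its share was 1.63% ± 1.21, 0.367% ± 0.218 and 1.55% ± 0.98. GLR2.7 went from 14.8% ± 3.0 to 30.9% ± 1.5 in wild type, from 10.6% ± 2.3 to 30.5% ± 10.4 in als3-1 and from 14.1% ± 4.2 to 20.6% ± 2.3 in sog1-7. GLR2.5 went from 2.51% ± 0.49 to 8.81% ± 0.89, from 6.21% ± 0.26 to 17.2% ± 5.2 and from 4.89% ± 1.50 to 13.7% ± 4.8.

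**Figure D4:**
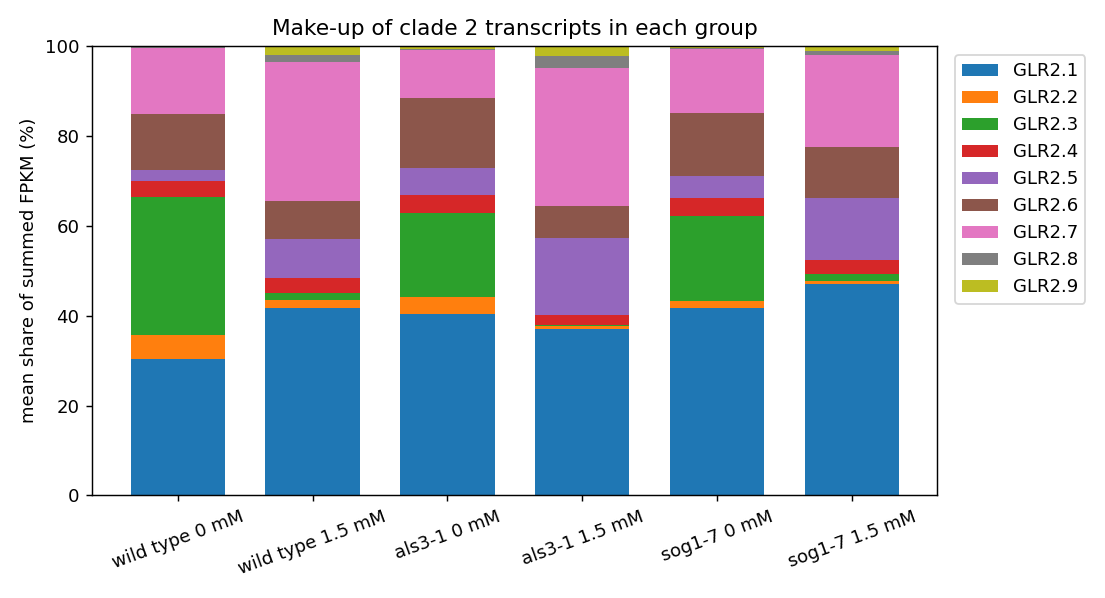
Mean share of the summed FPKM of the 9 genes (vertical axis, percent, stacked to 100) in each group of 3 libraries. GLR2.3 takes 18.7 to 30.6% at 0 mM and 0.367 to 1.63% at 1.5 mM, and GLR2.1 takes 30.3 to 47.0% in the 6 groups.

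The genotypes were compared at one AlCl3 concentration with edgeR's quasi-likelihood test, adjusted over all genes tested. Without aluminium, GLR2.2 and GLR2.3 were lower in sog1-7 than in wild type. GLR2.2 averaged 0.351 against 2.05 CPM (log2 fold change -2.56 ± 0.67, adjusted p = 0.0243) and GLR2.3 averaged 3.71 against 9.98 CPM (-1.43 ± 0.40, adjusted p = 0.0348), each lower in 3 of 3 libraries. These were 2 of 9 members called, beside 10.2% of all genes tested. Both calls were lost without the libraries low in ribosomal RNA (-2.09, edgeR adjusted p = 0.0815, and -1.35, edgeR adjusted p = 0.0767). The GLR2.3 call was lost without any 1 of the 6 libraries compared (edgeR adjusted p = 0.0592 to 0.130). The GLR2.2 call was lost without wild type replicate 2 or 3 (edgeR adjusted p = 0.0569 and 0.0955) and without sog1-7 replicate 2 or 4 (0.0809 and 0.0636). All 8 shoot markers were lower in the same comparison, and their summed level was 27300 to 34100 CPM in wild type and 6660 to 11400 in sog1-7. Their part in the GLR2.2 and GLR2.3 results was not tested.

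In als3-1 against wild type at 0 mM, edgeR called 0 of 9 members, beside 2.32% of genes, with 3 at an unadjusted p under 0.05 and 1 called by DESeq2. GLR2.3 averaged 4.72 against 9.98 CPM (-1.08 ± 0.40, edgeR adjusted p = 0.189), GLR2.5 averaged 1.58 against 0.830 (0.92 ± 0.26, 0.0789) and GLR2.7 averaged 2.87 against 5.22 (-0.87 ± 0.36, 0.250). With the replicate number as a block, GLR2.5 (0.91, edgeR adjusted p = 0.0333) and GLR2.7 (-0.90, 0.0111) passed the threshold. Summed shoot markers were 10700 to 19400 CPM in als3-1, below all wild type libraries. Between als3-1 and sog1-7 at 0 mM edgeR and DESeq2 called 0 of 9 members, beside 0.351% of genes by edgeR, with 3 at an unadjusted p under 0.05.

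At 1.5 mM GLR2.5 was higher in als3-1 than in the other genotypes. It averaged 3.45 CPM in als3-1, 1.66 in wild type and 1.82 in sog1-7, and every als3-1 library was above every library of the other groups. The log2 fold changes were 1.05 ± 0.24 against wild type (edgeR adjusted p = 0.0194, 1 of 9 members called beside 5.58% of genes) and 0.92 ± 0.24 against sog1-7 (edgeR adjusted p = 0.0318, 1 of 9 beside 6.69%). Without the libraries low in ribosomal RNA they were 0.95 in each case, with edgeR adjusted p = 0.0646 and 0.0974. The call against wild type was also lost without als3-1 replicate 2 or 4 (edgeR adjusted p = 0.0785 and 0.0542) or wild type replicate 3 or 4 (0.0881 and 0.0574). The call against sog1-7 was lost without als3-1 replicate 2 or 4 (edgeR adjusted p = 0.115 and 0.0645) or sog1-7 replicate 3 or 4 (0.132 and 0.0928). The root markers TIP2;3 and BGLU21 were lower in als3-1 in the same comparisons, by log2 fold changes of -3.72 and -1.06 against wild type (edgeR adjusted p = 0.00236 and 0.00596) and -3.29 and -1.28 against sog1-7 (edgeR adjusted p = 0.00416 and 0.00145). They were 2 of 10 root markers called in each comparison, beside 5.58% and 6.69% of genes. The median log2 fold change of the 10 markers was -0.05 against wild type and -0.22 against sog1-7. Of 8 shoot markers 1, RCA, was called lower against wild type (-1.0, edgeR adjusted p = 0.0375, and 0.0577 without the low-rRNA libraries), and 0 against sog1-7 (0 by DESeq2, 1 at an unadjusted p under 0.05). The summed root markers were 5570 to 9110 CPM in als3-1, 4610 to 5560 in wild type and 5470 to 7590 in sog1-7. The part of these markers in the GLR2.5 result was not tested.

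At 1.5 mM the mean of GLR2.7 was lower in sog1-7 than in the other genotypes, with calls that depended on the fit. It averaged 3.08 CPM in sog1-7, against 6.62 in wild type (-1.11 ± 0.35, edgeR adjusted p = 0.0684) and 6.88 in als3-1 (als3-1 against sog1-7 1.16 ± 0.35, 0.0591). Without the low-rRNA libraries the values were -1.21 (edgeR adjusted p = 0.0665) and 0.91 (0.252). With the replicate block the adjusted p-values of edgeR were 0.0013 and 0.00132, and those of DESeq2 without the block were 0.0239 and 0.0164. In sog1-7 against wild type edgeR called 0 of 9 members without the block, beside 7.40% of genes, with 2 at an unadjusted p under 0.05 and 1 called by DESeq2. The summed shoot markers were 11500 to 15700 CPM in sog1-7, 19200 to 35000 in wild type and 17100 to 22400 in als3-1, so sog1-7 did not overlap either. Against wild type 4 of 8 shoot markers were called lower in sog1-7, and against als3-1 0 of 8 were called (0 by DESeq2, 1 at an unadjusted p under 0.05). Their part in the GLR2.7 values was not tested. The GLR2.8 mean in als3-1 lay 1.95 ± 0.72 above that in sog1-7 on the log2 scale (edgeR adjusted p = 0.121, 0.0261 with the block and 0.204 without the low-rRNA libraries). GLR2.3 had a lower mean in als3-1 than in wild type at 1.5 mM (-2.36 ± 0.71, edgeR adjusted p = 0.0675, 0.0466 with the block and 0.222 without the low-rRNA libraries), on 8 against 34 reads. The defence genes FMO1 (3.23 ± 0.68, edgeR adjusted p = 0.00960) and PAD3 (1.78 ± 0.24, edgeR adjusted p = 0.000337) were higher in als3-1 than in sog1-7 at this concentration. The FMO1 call was lost without the low-rRNA libraries (2.31, edgeR adjusted p = 0.123). The list of 10 defence genes was made after these data had been seen. Of them edgeR called 5 higher and 0 lower in this comparison (9 called by DESeq2), beside 6.69% of genes. Of these 5, only PAD3 (1.65, edgeR adjusted p = 0.00555) and ICS1 (0.47, 0.0402) stayed called without the low-rRNA libraries.

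**Figure D5:**
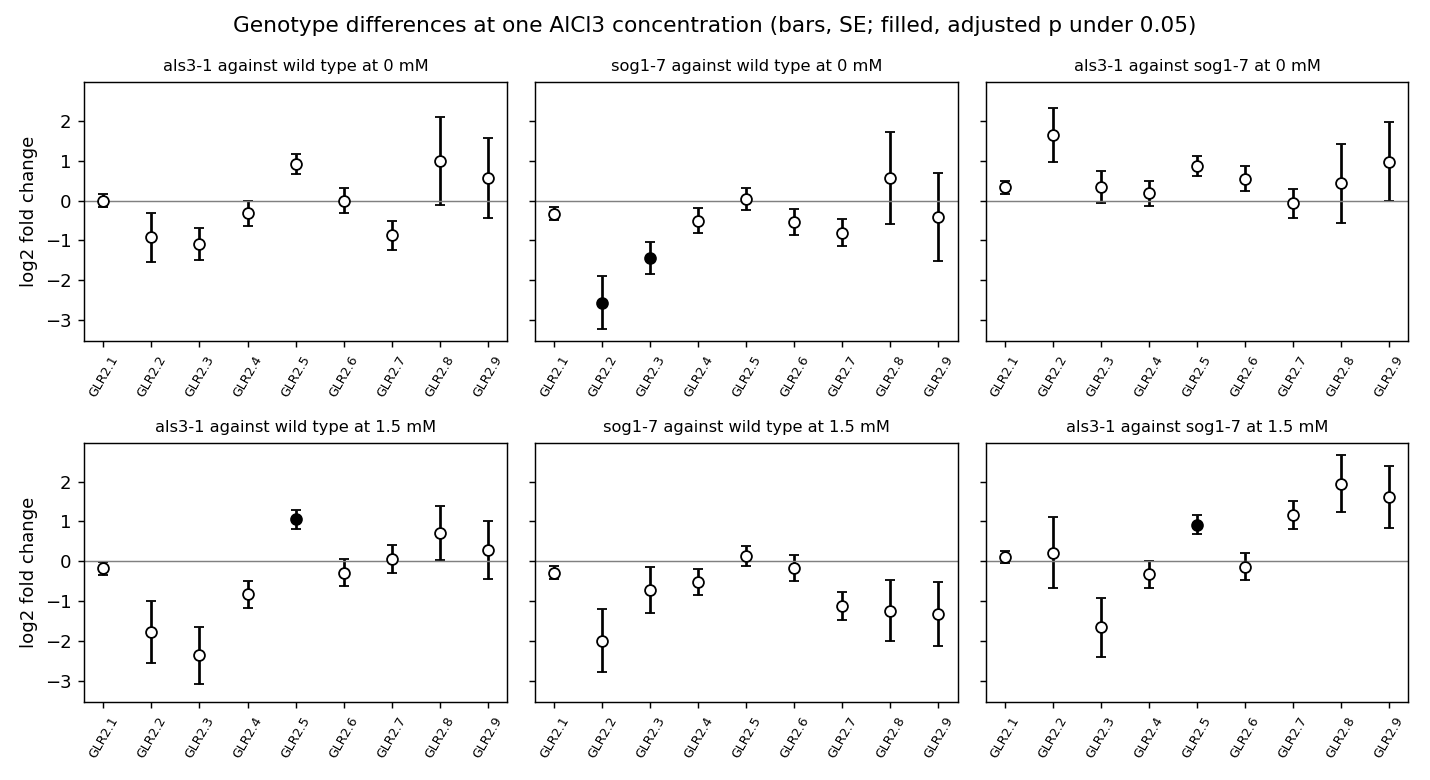
Log2 fold change (vertical axes) of each member between 2 genotypes at one AlCl3 concentration, 1 panel per comparison, with bars for the SE. Filled points passed an adjusted p of 0.05: GLR2.2 (-2.56) and GLR2.3 (-1.43) in sog1-7 against wild type at 0 mM, and GLR2.5 in als3-1 at 1.5 mM against wild type (1.05) and against sog1-7 (0.92).

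The responses themselves were compared between genotypes with interaction contrasts. For als3-1 minus wild type edgeR and DESeq2 called 0 of 9 members, beside 0.402% of genes by edgeR, with 0 at an unadjusted p under 0.05. The GLR2.3 difference was -1.28 ± 0.82 (edgeR adjusted p = 0.702) and that of GLR2.7 0.93 ± 0.49 (0.644). For sog1-7 minus wild type both tools also called 0 of 9, beside 0.00462% by edgeR, with 0 at an unadjusted p under 0.05, and GLR2.3 differed by 0.72 ± 0.72 (edgeR adjusted p = 1.0). For als3-1 minus sog1-7 both tools called 0 of 9, beside 1.15%, with 2 at an unadjusted p under 0.05. Those were GLR2.3 (-1.99 ± 0.84, edgeR adjusted p = 0.488) and GLR2.7 (1.23 ± 0.50, 0.454), and GLR2.7 passed with the replicate block (1.18, edgeR adjusted p = 0.0313). GLR2.5 differed by 0.05 to 0.13 between genotypes in its response, with SE of 0.36. Without the low-rRNA libraries edgeR called 0 of 9 members in each of these contrasts, and the GLR2.3 differences were -0.95, 0.36 and -1.31.

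The 5 genes whose pattern over the 6 group means was most like that of GLR2.3 were chosen by the smallest root mean square difference of centred log2 CPM. They were AT3G29110, annotated as a terpenoid cyclase family protein (0.81), AT4G29450, a leucine-rich repeat protein kinase family protein (0.84), CYP710A3, a cytochrome P450 (0.88), AT5G45230, a TIR-NBS-LRR family protein (0.91), and AT5G50140, an ankyrin repeat family protein (0.92). All 5 had lower levels than GLR2.3 at 0 mM in wild type (0.523 to 2.29 against 9.98 CPM), so few reads stand behind their treated values. GLR2.2 ranked 42 of 21650 by this measure (1.56), GLR2.6 ranked 213 (2.01), and GLR2.5 ranked 21102 (3.24). Of 32 genes flanking the members, 18 were tested. In als3-1 3 of them fell with aluminium, LAC2 (-1.23 ± 0.28), AT5G11240 (-0.87 ± 0.13) and AT5G27120 (-1.12 ± 0.21), with edgeR adjusted p = 0.00951, 0.000375 and 0.00251, beside 10.8% of all genes called. The LAC2 call was lost without als3-1 replicate 2 at 1.5 mM (edgeR adjusted p = 0.0544). Over the 18, log2 fold changes ranged from -0.95 to 0.35 in wild type and from -0.78 to 1.38 in sog1-7. There edgeR and DESeq2 called 0 of 18, with 3 in each genotype at an unadjusted p under 0.05, beside 1.88% and 1.19% of genes.

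The other glutamate receptors were tested in full. Of 11 clade 1 and 3 genes, edgeR called 1 in als3-1, GLR1.4 (0.38 ± 0.12, adjusted p = 0.0453), beside 10.8% of all genes, with 6 of 11 at an unadjusted p under 0.05. That call was lost without the low-rRNA libraries (0.30, edgeR adjusted p = 0.137) and in 13 of the 18 fits that left out 1 library. In wild type and sog1-7 edgeR and DESeq2 called 0 of 11, with 1 of 11 in each at an unadjusted p under 0.05, beside 1.88% and 1.19% of genes. Between als3-1 and sog1-7 at 0 mM edgeR called 0 of 11 (1 by DESeq2, 3 at an unadjusted p under 0.05), beside 0.351% of genes. At 1.5 mM it called GLR1.1 and GLR1.2 higher in als3-1 than in sog1-7, beside 6.69%. The GLR1.1 call was lost without the low-rRNA libraries (edgeR adjusted p = 0.111). GLR3.3, a receptor of wound signalling, was lower in both mutants without aluminium, at 26.4 CPM in als3-1 (-0.49 ± 0.11, edgeR adjusted p = 0.0296) and 23.6 in sog1-7 (-0.65 ± 0.11, 0.00184) against 37.0 in wild type. It was lower at 1.5 mM too (-0.55 ± 0.11 and -0.59 ± 0.11, edgeR adjusted p = 0.00760 and 0.00555). The als3-1 call of GLR3.3 at 0 mM was lost without any 1 of the 3 als3-1 libraries and without wild type replicate 3 or 4 (edgeR adjusted p = 0.0854 to 0.125). Against wild type at 0 mM edgeR called 0 of 11 higher and 1 lower in als3-1, beside 2.32% of genes. In sog1-7 it called 1 higher, GLR1.4 (0.61 ± 0.12, edgeR adjusted p = 0.00423), and 1 lower, beside 10.2%. At 1.5 mM it called GLR1.3 higher and 1 lower in als3-1, beside 5.58%. In sog1-7 it called 0 higher and 3 lower there (GLR1.1, GLR3.3 and GLR3.4), beside 7.40%. The GLR1.3 call was lost without the low-rRNA libraries (edgeR adjusted p = 0.0669). Of 5 cornichon homologues, which in animals escort glutamate receptors, edgeR and DESeq2 called 0 in each of the 3 responses, with 0 at an unadjusted p under 0.05, beside 1.88%, 10.8% and 1.19% of all genes by edgeR.

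Of 16 tested genes of glutamate metabolism, GDH1, a glutamate dehydrogenase, rose and GLN1;2, a cytosolic glutamine synthetase, fell with aluminium in all 3 genotypes. EdgeR called 2, 3 and 2 of the 16 in wild type, als3-1 and sog1-7, beside 1.88%, 10.8% and 1.19% of all genes. GDH1 changed by 1.13 ± 0.14 in wild type, 0.61 ± 0.14 in als3-1 and 1.44 ± 0.14 in sog1-7 on the log2 scale (edgeR adjusted p = 0.000345, 0.00919 and 5.32e-05), and its als3-1 call was lost without als3-1 replicate 2 at 1.5 mM (0.0521). GLN1;2 changed by -1.17 ± 0.13, -0.87 ± 0.13 and -1.35 ± 0.13 (edgeR adjusted p = 0.000205, 0.000571 and 7.42e-05). GAD4, a glutamate decarboxylase, rose in als3-1 (2.78 ± 0.47, edgeR adjusted p = 0.00135). Of 17 tested cyclic nucleotide gated channels, another family of calcium-permeable channels, edgeR called CNGC13 higher in wild type (1.3 ± 0.25, adjusted p = 0.0116), CNGC11 and CNGC13 higher and CNGC14 lower in als3-1, and 0 in sog1-7 (0 by DESeq2), with 1 there at an unadjusted p under 0.05. These were 1, 3 and 0 of 17, beside 1.88%, 10.8% and 1.19% of all genes. The als3-1 call of CNGC11 was lost without the low-rRNA libraries (edgeR adjusted p = 0.0511). That of CNGC13 was lost in 11 of the 18 fits that left out 1 library, and its wild type call without treated replicate 2 or untreated replicate 4 (edgeR adjusted p = 0.0516 and 0.0715).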

How the data were processed

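The deposited files hold, for each of 18 libraries, whole-number read counts per gene and FPKM values. Per the submitters' processing notes the tools were FastQC 0.11.7, STAR 2.7.3a, featureCounts 2.0.0, Cufflinks 2.2.1 and DESeq2 1.36.0, with the build TAIR10. The deposited counts are unnormalized, and the deposited FPKM values are scaled to gene length and mapped fragments. How featureCounts treated strand and multiply mapped reads, and which annotation release it used, is not given in the sources used here.

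Counts were fitted with edgeR 4.0.16 in R 4.3.3 (quasi-likelihood, TMM, robust, filterByExpr with a minimum of 10 counts, 1 mean per group over 18 libraries), with Benjamini-Hochberg adjustment over 21650 of 32833 genes and a threshold of 0.05. The SE of a log2 fold change was derived from its F statistic. Alternatives used DESeq2 1.42.0, other size factors, no filter, a replicate block, fewer libraries, and limma 3.58.1 on log2(FPKM + 0.1) or log2(FPKM + 1). The fit was tested on simulated counts in which only more strongly expressed genes were changed. That test does not cover genes with few reads, as most of the 9 members have. Same-numbered libraries deviated together, with a correlation over 0.1 in 26 of 27 pairs. That held for all pairs in 8 of the 9 comparisons of 2 groups, where the numbers were taken to pair the samples, the exception being sog1-7 against wild type at 0 mM. The main fit had no block, so its tests did not use this pairing, and fits with the block are given as an alternative. The highest correlations, 0.728 and 0.7, were between replicate 2 libraries that were both low in ribosomal RNA. Pairing and that shared trait cannot be told apart there. No 2 replicates agreed within sampling noise (lowest chi-square per degree of freedom 17.0 over 18 pairs).

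All 9 members are named. Of other lists, called genes could be named, at most 3 per list and comparison by p. Members and lists were chosen with earlier results of these data known. Intervals cover counting error only.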

Additional observations from a re-analysis of the deposited data

How the results depend on the processing

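On the log2(FPKM + 1) scale the GLR2.3 responses shrank to -1.73 in wild type, -1.22 in als3-1 and -0.99 in sog1-7, and on log2(FPKM + 0.1), with or without the filter, to -3.61 in als3-1 and -2.88 in sog1-7, as a pseudocount above the treated level must make them. Leaving out 1 library gave -5.27 to -4.30, -6.26 to -5.72 and -4.39 to -3.56. Of 2847 alternative values of single members, 0 turned the sign of a value under the adjusted p threshold. A change of sign was not counted where the member was not called. GLR2.7 in als3-1 against wild type at 1.5 mM, for example, was 0.06 and went from -0.30 to 0.37 when 1 library was left out. In the aluminium responses, GLR2.7 in sog1-7 kept its sign in 24 of 27 alternatives and GLR2.8 there in 23 of 24. The exception for GLR2.8 was the fit without the low-rRNA libraries (-0.16 against 0.96). GLR2.2 shrank on the FPKM scales too, to between -1.43 and -0.31 in als3-1 and between -0.55 and -0.09 in sog1-7.

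Members called in als3-1 against wild type at 0 mM were 0, but 1 by DESeq2, 2 with the replicate block and 1 on log2(FPKM + 1). In sog1-7 against wild type at 0 mM the 2 became 0 without the low-rRNA libraries and 1 on log2(FPKM + 0.1) unfiltered, with 0 to 2 when 1 library was left out; there the numbers did not pair the samples (lowest correlation -0.0376), and the block added GLR2.7 (adjusted p = 0.00647 by edgeR). In als3-1 against wild type at 1.5 mM the 1 became 2 by DESeq2 and with the block, and 0 without the low-rRNA libraries, in a fit of the 2 groups alone and on log2(FPKM + 0.1) with or without the filter, with 0 to 2 when 1 library was left out. In sog1-7 against wild type at 1.5 mM the 0 became 1 by DESeq2 and with the block, with 0 to 1 when 1 library was left out. In als3-1 against sog1-7 at 1.5 mM the 1 became 2 by DESeq2, 3 with the block and 0 without the low-rRNA libraries, in the fit of 2 groups and on each FPKM scale, with 0 to 1 when 1 library was left out. For the als3-1 minus sog1-7 response the 0 became 1 with the block. The block changed no other call of a member between genotypes. The cause of these shifts was not tested.

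Genes called overall also moved. The 408 of the wild type response were 803 with the block, 717 by DESeq2, 163 in the fit of 2 groups and 196 to 240 on the FPKM scales, and leaving out 1 library gave 212 to 412. The 2348 of als3-1 were 4085 with the block, 1199 in the fit of 2 groups and 1384 to 1419 on the FPKM scales, with 1362 to 2606. The 257 of sog1-7 were 573 with the block, 538 by DESeq2, 143 without the low-rRNA libraries and 78 in the fit of 2 groups, with 144 to 274. At 0 mM the 502 of als3-1 against wild type were 182 to 1595 (154 to 625 when 1 library was left out), the 2211 of sog1-7 against wild type 1134 to 4124 (1208 to 2375) and the 76 of als3-1 against sog1-7 3 to 485 (14 to 88). At 1.5 mM the 1207, 1602 and 1448 were 462 to 2510 (635 to 1338), 643 to 3611 (583 to 1708) and 453 to 3136 (639 to 1656). The 87, 1 and 249 of the response differences were 16 to 217 (34 to 97), 0 to 4 (0 to 1) and 109 to 450 (149 to 258). The shares of all genes printed beside the members' counts move with these totals.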
